A study of Rattus norvegicus with 6 samples.

Results

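The 9 genes described here encode chondroitin sulfate proteoglycans and tenascins of the surface and surrounding matrix of oligodendrocyte precursor cells (OPCs), from which myelinating oligodendrocytes develop. They were the lecticans Acan, Bcan, Ncan and Vcan, the tenascins Tnc and Tnr, and the membrane proteoglycans Cspg4, Cspg5 and Ptprz1, and they made up 9 of the 32883 genes of the count table. The list was chosen by gene class, but with the measured difference between treated and control cells already known, so the size and direction of that difference in the 9 genes are given as a description. Where it is said on which side of the limit of the fit over all genes one of them lay, no p-value is given and the statement is no evidence of a difference. No threshold on a measured value entered the choice, and each of the 9 genes was found in the table.

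OPCs were grown from the cerebral cortex of Sprague Dawley rats at postnatal day 0. The labels describe 2 cortices as starting tissue, a mixed culture kept for 7 days in serum, OPCs shaken off from it, and further culture in Neurobasal with the supplements B27 and N2. One group received 5 µM ZJU-37, an inhibitor of the kinase RIPK1 derived from Nec-1s, and the other an equal volume of its solvent DMSO, for 36 h according to the labels, whereas the methods give a shorter time. Each group had 3 poly-A RNA-seq libraries, which the methods call biological repeats and a figure legend calls plate wells, so that p-values measure the spread between these libraries, which may in part be technical.

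Lecticans are secreted core proteins that carry chondroitin sulfate chains, bind hyaluronan at one end and tenascin-R at the other, and so form a network around cells of the central nervous system. NG2, the product of Cspg4, spans the membrane and is widely used to mark OPCs. Ptprz1 is a receptor tyrosine phosphatase whose extracellular part carries chondroitin sulfate and binds pleiotrophin, midkine, contactin-1 and tenascins.

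The libraries held between 13935865 and 24097927 counts, and a floor of 3 counts stood at 0.124 CPM in the deepest and 0.215 CPM in the shallowest library, where CPM is the read count scaled by library size and the floor covers counting error only. Differences between ZJU-37 and DMSO were estimated with edgeR on 14670 genes that passed a filter on low counts, and CPM values are scaled with TMM, edgeR's library factors. In edgeR's quasi-likelihood test 15.0% of them passed an adjusted p of 0.05, 9.43% being higher and 5.58% lower with ZJU-37. The values of the treated libraries lay wholly above or wholly below those of the controls in 35.2% of the tested genes. When the replicate number was added as a block, 32.1% of the tested genes were past the same limit.

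The proteoglycan and tenascin genes did not move as one group. All 9 passed the filter, and 7 of them were past the edgeR limit. With ZJU-37, 3 were higher (Cspg4, Cspg5 and Ptprz1) and 4 lower (Tnr, Acan, Vcan and Bcan). Bcan and Ptprz1 were not past it in every alternative analysis, as given in the closing section. In 8 of the 9 genes the groups did not overlap, the exception being Ncan. Because the genes were listed with this comparison known, nothing is read from these counts against the shares over all genes. The secreted and the membrane-bound genes lay on opposite sides of 0, with a median log2 fold change of -1.0 in the 4 lecticans, -1.86 in the 2 tenascins and 1.02 in the 3 membrane proteoglycans, where the median over all tested genes was -0.03.

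**Figure D1:**
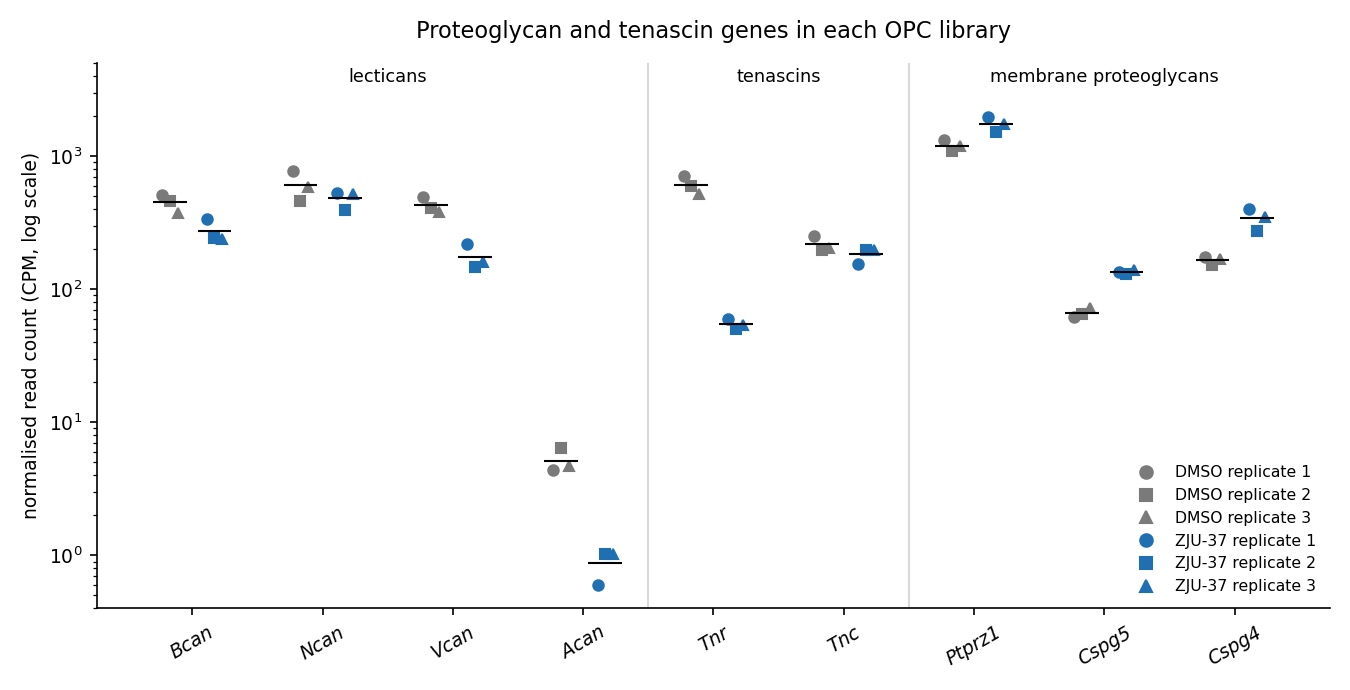
Normalised read counts (CPM, log scale) of the 9 genes in each library, DMSO in grey and ZJU-37 in blue, with a symbol for each replicate number and a line at the group mean (n = 3 libraries). Tnr, Acan and Vcan lie lower in all 3 ZJU-37 libraries, Cspg4, Cspg5 and Ptprz1 lie higher, and the groups of Ncan overlap.

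Tnr, which encodes tenascin-R, a trimeric glycoprotein made by cells of the oligodendrocyte lineage that crosslinks lecticans, had the largest difference of the 9 genes. DMSO replicates 1, 2 and 3 held 9746, 10600 and 9834 counts of Tnr, and ZJU-37 replicates 1, 2 and 3 held 1114, 1032 and 1298. On the normalised scale these were 712, 599 and 522 CPM with DMSO and 60.2, 50.05 and 53.7 CPM with ZJU-37, so that the lowest control library was far above the highest treated one. The mean was 611 ± 95.5 CPM with DMSO and 54.6 ± 5.16 CPM with ZJU-37 (SD, n = 3 libraries each), an 11.2-fold difference with a log2 fold change of -3.48 (SE 0.141). Libraries of the same replicate number differed by -3.56, -3.58 and -3.28 on the log2 scale. Among the 14670 tested genes, Tnr had the 9th lowest log2 fold change. In the annotation of the table Tnr lies at chr13:77485113-77678437 on the plus strand, on a genome build that is not given in the sources used here.

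The first bases of the annotated span of Tnr overlap a long non-coding RNA, AABR07021536.1, at chr13:77264239-77485250 on the same strand, which shares 138 bases with it. This RNA held 188, 232 and 212 counts with DMSO and 12, 28 and 26 counts with ZJU-37, and its log2 fold change was -3.61 (SE 0.264, edgeR adjusted p = 0.00043). It therefore had a difference close in size to that of Tnr. Reads from the shared bases cannot be assigned to one of the pair, but the RNA summed to 698 counts over the 6 libraries against 33624 for Tnr.

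Tnc encodes tenascin-C, the other tenascin of the list, which is abundant in the developing brain and is made by OPCs and astrocytes. Its levels were 253, 198 and 203 CPM with DMSO and 155, 198 and 198 CPM with ZJU-37. The means of 218 ± 30.4 CPM and 184 ± 24.6 CPM (SD, n = 3 libraries each) gave a log2 fold change of -0.25 (SE 0.134). The groups were apart only at the second decimal, the lowest DMSO library having 198.283 CPM and the highest ZJU-37 library 198.275 CPM, and the log2 difference was -0.70 in the first replicate pair, -0.0035 in the second and -0.035 in the third. Without DMSO replicate 1 the log2 fold change was -0.13, and without ZJU-37 replicate 1 it was -0.12. The 2 tenascins thus differed from each other in both size and evenness of the difference. Per unit of gene length (FPKM), Tnr stood at 2.90, 3.11 and 2.65 times the level of Tnc in the DMSO libraries and at 0.399, 0.261 and 0.279 times its level in the ZJU-37 libraries.

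The sequences upstream of Tnr, Tnc and Cspg4 are shown because these genes were lower, little different and higher with ZJU-37. Each is the window of 250 bases before the annotated start, 5′ to 3′ on the gene's strand, from RefSeq on the build GRCr8, and capitals mark every match to 1 of 7 motifs on either strand.
Tnr (chr13:74624776-74625025, plus strand): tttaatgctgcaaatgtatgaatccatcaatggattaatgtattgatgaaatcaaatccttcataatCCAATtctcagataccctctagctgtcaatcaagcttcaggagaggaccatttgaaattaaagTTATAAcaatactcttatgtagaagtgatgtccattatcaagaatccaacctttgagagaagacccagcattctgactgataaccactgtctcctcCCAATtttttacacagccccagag
Tnc (chr5:82476132-82476381, minus strand): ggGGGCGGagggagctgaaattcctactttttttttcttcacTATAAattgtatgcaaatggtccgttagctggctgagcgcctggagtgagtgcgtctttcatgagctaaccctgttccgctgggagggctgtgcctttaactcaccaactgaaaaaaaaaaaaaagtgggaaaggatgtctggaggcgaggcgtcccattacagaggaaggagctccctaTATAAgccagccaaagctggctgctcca
Cspg4 (chr8:66160692-66160941, plus strand): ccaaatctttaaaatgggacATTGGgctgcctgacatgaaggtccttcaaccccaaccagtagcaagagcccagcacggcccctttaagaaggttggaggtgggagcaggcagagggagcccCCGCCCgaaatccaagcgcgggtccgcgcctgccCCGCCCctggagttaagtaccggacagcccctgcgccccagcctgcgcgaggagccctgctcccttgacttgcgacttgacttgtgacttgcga
The motifs searched were the TATA box (TATAA, in 24% of all 33469 windows of this length), the CCAAT box (CCAAT, 34%), the GC box (GGGCGG, 30.5%), the E-box CAGCTG (12%), the SOX core ACAAAG (16.3%), the AP-1 site TGANTCA (6.34%) and the NF-κB site (1.3%). A match describes letters and not a bound site, and the start used by these cells may lie elsewhere.

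The Tnr window was poor in G and C, with 36.8% against a median of 51.2%, and 8.03% of all windows had a lower content. It held 2 CCAAT boxes, starting 183 and 24 bases before the start, and a TATA match on each strand of a single TTATAA stretch about 120 bases before the start, and it held no GC box. The Tnc window, with 49.6% G and C, had TATA matches 208 and 28 bases before the start. The Cspg4 window, with 62.0%, had GC boxes 128 and 94 bases before the start and a CCAAT box at 230. Of the 9 genes, 7 had an entry, with 8 windows in all since Vcan had 2, and each window other than that of Tnr held at least 1 GC box. None of the 8 windows matched the letters searched for the E-box, the SOX core, the AP-1 site or the NF-κB site. Other spellings of these sites were not searched. Cspg5 and Ptprz1 are named only.

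The 4 lecticans were lower on average with ZJU-37, to very different extents. Vcan encodes versican, a lectican that is also widespread outside the nervous system. Its levels were 494, 408 and 384 CPM with DMSO and 218, 148 and 161 CPM with ZJU-37. All 3 treated libraries were well below the controls, and the means of 428 ± 57.6 CPM and 176 ± 37.1 CPM (SD, n = 3 libraries each) gave a 2.44-fold difference (log2 fold change -1.29, SE 0.17). The replicate pairs differed by -1.18, -1.46 and -1.26 on the log2 scale.

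Bcan encodes brevican, a lectican of the nervous system. It had 513, 462 and 377 CPM with DMSO and 339.6, 244 and 238 CPM with ZJU-37. The groups did not overlap but came close, the highest treated library (replicate 1) lying just below the lowest control library (replicate 3). The means of 451 ± 68.5 CPM and 274 ± 56.9 CPM (SD, n = 3 libraries each) gave a log2 fold change of -0.72 (SE 0.174).

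Ncan encodes neurocan, the other lectican of nervous tissue. Its levels of 775, 462 and 592 CPM with DMSO and 527, 398 and 521 CPM with ZJU-37 overlapped, since DMSO replicate 2 lay below 2 of the treated libraries. The mean was 609.7 ± 157 CPM with DMSO and 482 ± 72.8 CPM with ZJU-37 (SD, n = 3 libraries each), and the log2 fold change of -0.34 (SE 0.206) was not past the edgeR limit. It was -0.13 without DMSO replicate 1, -0.19 without ZJU-37 replicate 2 and -0.51 without DMSO replicate 2, so that its size rests on single libraries. Within the replicate pairs the difference had the same sign each time, with -0.56, -0.22 and -0.19 on the log2 scale. With the replicate block the log2 fold change was -0.32 (SE 0.0764), and Ncan was then past the limit, which brought the count to 8 of 9 genes.

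Acan, which encodes aggrecan, the large lectican of cartilage and perineuronal nets, had the lowest level of the 9 genes, with 60, 113 and 88 counts in the DMSO libraries and 11, 21 and 25 counts in the ZJU-37 libraries. The treated libraries were lower in every case, at 0.595, 1.02 and 1.03 CPM against 4.38, 6.38 and 4.67 CPM. The log2 fold change was -2.53 (SE 0.290), the largest SE of the 9 genes, and the replicate pairs ranged from -2.83 to -2.16. On the log2(FPKM + 1) scale, where low genes are compressed, it was -0.62.

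The 3 membrane proteoglycans were higher with ZJU-37. Cspg4, the gene of the OPC marker NG2, had 176, 152 and 168 CPM with DMSO and 399, 274 and 351 CPM with ZJU-37. The treated libraries all lay above the controls but were more spread, with means of 166 ± 12.1 CPM and 341 ± 63.0 CPM (SD, n = 3 libraries each). The log2 fold change was 1.04 (SE 0.142), a 2.06-fold difference, with replicate pairs at 1.18, 0.84 and 1.06.

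Cspg5 encodes neuroglycan C, a transmembrane proteoglycan of the nervous system with an EGF-like domain. It had 62.3, 65.1 and 72.8 CPM with DMSO and 135, 131 and 140.2 CPM with ZJU-37. The means of 66.8 ± 5.45 CPM and 135 ± 4.76 CPM (SD, n = 3 libraries each) gave a 2.03-fold difference, close to that of Cspg4, and the log2 fold change was 1.02 (SE 0.0747).

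Ptprz1, the receptor phosphatase, had the highest mean FPKM of the 9 genes in both groups. Its levels were 1316, 1101 and 1186 CPM with DMSO and 1962, 1531 and 1733 CPM with ZJU-37, without overlap. The log2 fold change was smaller than for the other 2 membrane proteoglycans, 0.54 (SE 0.116, 1.45-fold), and its replicate pairs agreed closely at 0.58, 0.48 and 0.55.

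**Figure D2:**
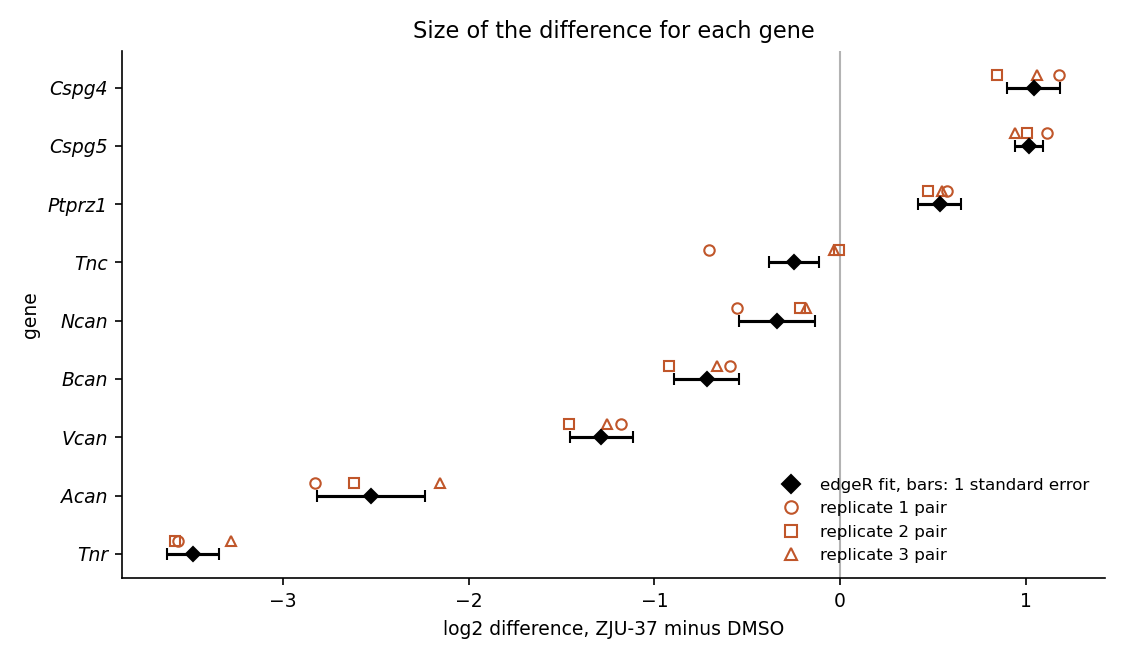
Log2 differences between ZJU-37 and DMSO for the 9 genes, as edgeR estimates with bars of 1 standard error (diamonds) and as differences within replicate pairs (open symbols, n = 3 pairs). Tnr at -3.48 and Acan at -2.53 lie farthest from 0, the 3 membrane proteoglycans lie between 0.54 and 1.04, and the 3 pairs of Tnc range from -0.70 to -0.0035.

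Within a group the same libraries were often high or low across the 9 genes. DMSO replicate 1 had the highest CPM of its group for 7 of the 9 genes and ZJU-37 replicate 1 for 6, while ZJU-37 replicate 2 was the lowest treated library for 6. For 8 of the 9 genes the block left the call as it was, the exception being Ncan.

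Levels of different genes can be compared only per length, and for this the FPKM values of the authors were used. With DMSO the order was Ptprz1 (152 ± 13.0 FPKM), Bcan (137 ± 20.7), Ncan (117 ± 29.6), Tnr (86.8 ± 13.4), Cspg5 (38.7 ± 3.16), Vcan (36.9 ± 4.85), Tnc (30.1 ± 4.07), Cspg4 (20.4 ± 1.39) and Acan (0.738 ± 0.159, all SD, n = 3 libraries). The neighbours from Ptprz1 down to Tnr overlapped in their libraries, as did Cspg5, Vcan and Tnc, whereas gaps separated Tnr from Cspg5, Tnc from Cspg4 and Cspg4 from Acan. With ZJU-37 the order was Ptprz1 (221 ± 29.5 FPKM), then Ncan (92.1 ± 14.4), Bcan (83.3 ± 18.3) and Cspg5 (78.3 ± 2.77), which overlapped, then Cspg4 (42.0 ± 8.13), Tnc (25.3 ± 3.13), Vcan (15.1 ± 3.37), Tnr (7.76 ± 0.816) and Acan (0.126 ± 0.0345), each apart from the next. Tnr thus went from the 4th to the 8th place among the 9 genes, and from rank 1010 to rank 8841 among the 14670 tested genes by mean FPKM. Cspg4 stood at rank 4796 with DMSO and 2281 with ZJU-37, and Cspg5 at 2551 and 1079.

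Summed over the 9 genes, the level was 619 ± 74.2 FPKM with DMSO and 565 ± 69.3 FPKM with ZJU-37 (SD, n = 3 libraries each), with overlapping libraries, so that the difference lay in the make-up more than in the sum. The membrane proteoglycans held 31.7% to 36.9% of the sum in the DMSO libraries and 59.8% to 60.9% in the ZJU-37 libraries. The share of the lecticans was 46.9 ± 1.99% with DMSO and 33.6 ± 1.54% with ZJU-37, and that of the tenascins 18.8 ± 1.0% and 5.94 ± 1.07%. Tnr alone went from 14.0% to 1.38% of the sum, and Ptprz1 from 24.6% to 39.0%. The level of Cspg4 was 0.215, 0.221 and 0.279 times that of Tnr in the DMSO libraries, and 5.74, 4.74 and 5.68 times that of Tnr in the ZJU-37 libraries.

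**Figure D3:**
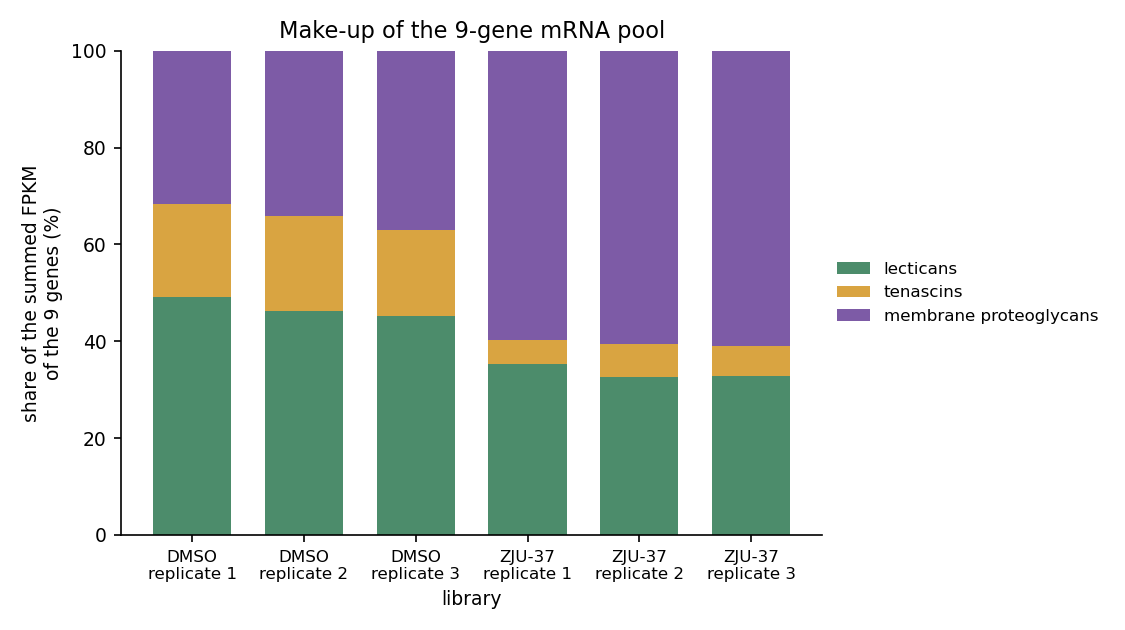
Share of the summed FPKM of the 9 genes (%, stacked to 100) held by lecticans, tenascins and membrane proteoglycans in each library. The membrane proteoglycans take between 31.7% and 36.9% in the 3 DMSO libraries and between 59.8% and 60.9% in the 3 ZJU-37 libraries.

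In bulk RNA, fewer cells of a type and less RNA per cell cannot be told apart, and markers of cell types are therefore given beside these values. Of 38 markers listed for 6 cell types, 37 were found and none was at 0 in every library. The marker lists were also chosen with earlier results of these data known. The markers listed for OPCs summed to 829 to 987 FPKM with DMSO and 914 to 1270 FPKM with ZJU-37. With DMSO, the means of Olig1 (373 FPKM), Sox10 (215) and Olig2 (188) were well above those of Pdgfra (60.1) and C1ql1 (65.2). The sum thus rests mainly on Olig1, Sox10 and Olig2. Of the 5 found, Pdgfra (log2 fold change 1.10) and Olig1 (0.64) rose and Sox10 (-0.61) and C1ql1 (-1.45) fell in the edgeR test, while Olig2 was not past the limit (-0.07). Pdgfra, the receptor that marks OPCs together with NG2, thus had a difference close to those of Cspg4 and Cspg5.

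Most markers of maturing oligodendrocytes lay on the same side as Tnr and Vcan. Their summed level was 3500 to 6300 FPKM with DMSO and 1310 to 2460 FPKM with ZJU-37, without overlap. Of the 8 markers, Cnp (log2 fold change -1.36), Myrf (-1.69), Bcas1 (-2.18) and Enpp6 (-2.34) fell in the edgeR test (adjusted p = 0.00362, 0.00208, 0.00038 and 0.00194), and the other 4, Mbp, Mag, Mog and Mobp, did not pass it. Astrocyte markers summed to 297 to 455 and 247 to 366 FPKM, with Aldoc lower (-0.86) among 7. Microglial markers summed to 909 to 1620 FPKM with DMSO and 674 to 1440 FPKM with ZJU-37, neuronal markers to 119 to 169 and 107 to 150 FPKM, and markers of fibroblasts and pericytes to 13.7 to 22.5 and 7.56 to 18.2 FPKM. No microglial, neuronal or fibroblast marker passed the edgeR limit, 1 neuronal marker had an unadjusted p under 0.05, and DESeq2 and limma-voom called 0 of them. With the block, 6 of the 8 maturing oligodendrocyte markers and 4 of the 7 astrocyte markers were past the limit, all lower. So were 2 of 8 microglial, 2 of 5 neuronal and 2 of 4 fibroblast or pericyte markers, also lower. Over all tested genes the block called 32.1%. The part of these cell types in the levels of the 9 genes was not tested.

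Across the 6 libraries, the genes whose log2 CPM was most like that of Tnr, where only genes averaging 1 CPM or more were searched, were Sema5a (Pearson r = 0.9997), Mycl (0.9996), Gpr155 (0.999), Ust (0.9984) and Samd5 (0.9982). Their log2 fold changes were -3.12, -2.64, -0.92, -2.08 and -2.98. All 6 points come from 2 groups, so that any gene with an even difference between the groups has a high r. Sema5a encodes a transmembrane semaphorin with thrombospondin repeats, and Ust an enzyme that sulfates chondroitin and dermatan sulfate, which was also among the pathway genes below.

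Chondroitin sulfate chains are built on the core proteins by enzymes that were not part of the list of 9. Of 91 other genes listed by function, 89 were found and 85 passed the filter. Of these, 17 (20%) passed the edgeR limit, 11 higher and 6 lower, against 15.0% of all tested genes. These lists too were chosen with earlier results of these data known. The shares and the adjusted p-values of their genes are therefore given as a description. Their median log2 fold change was -0.11. With the replicate block 38 of the 85 genes were past the limit, 19 in each direction. Over all tested genes the block called 32.1%, 2371 higher and 2334 lower, against 1383 and 818 without it. The balance of directions thus depends on the block, in these lists as over all genes.

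**Figure D4:**
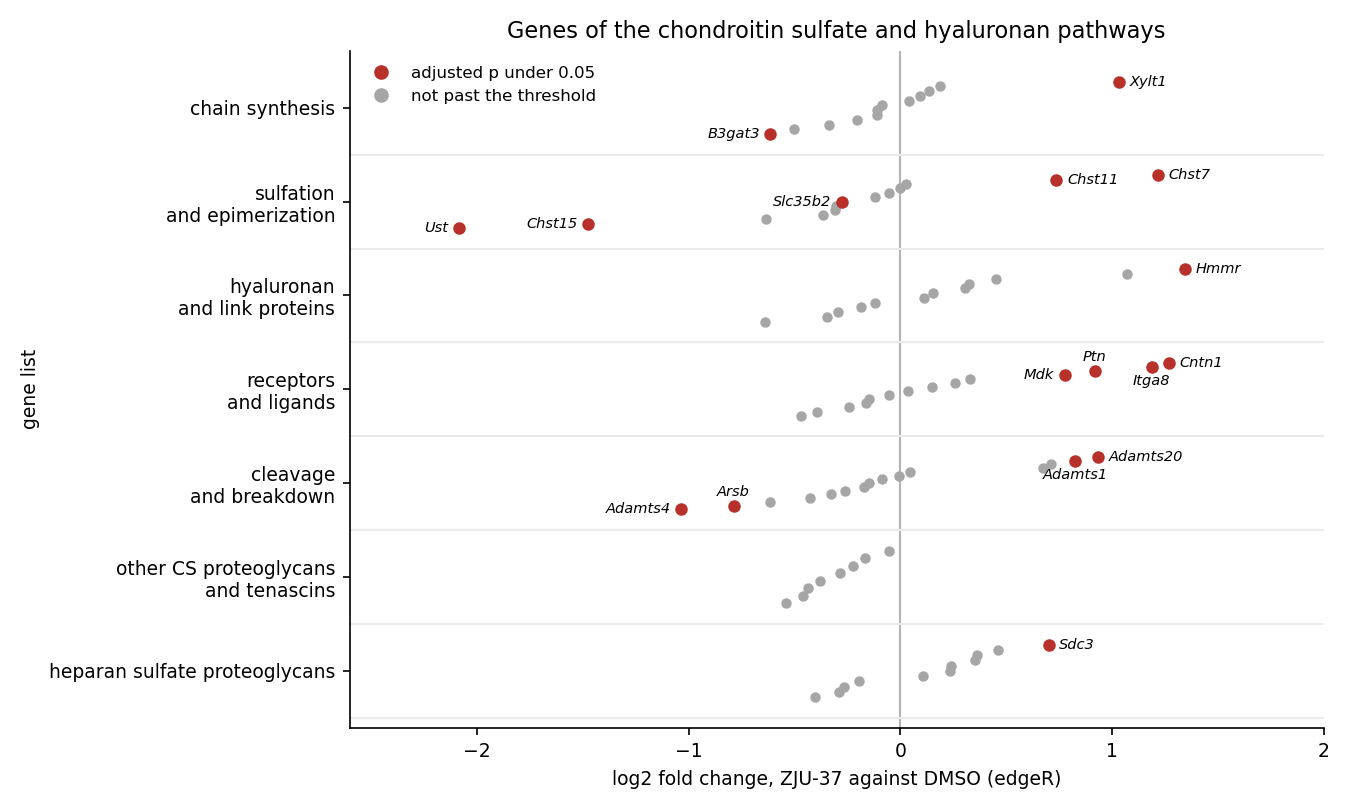
Log2 fold changes (ZJU-37 against DMSO, edgeR) of the 85 tested genes in 7 lists of chondroitin sulfate, hyaluronan and related genes, with 1 point per gene and the 17 genes past an adjusted p of 0.05 in red with their names. Ust at -2.08 and Hmmr at 1.34 are the extremes among the called genes, and the list of other proteoglycans and tenascins has no called gene.

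Among 12 genes of chain synthesis, 1 rose and 1 fell. Xylt1, whose product starts the chain by adding xylose to the core protein, had 75.7, 65.9 and 67.9 CPM with DMSO and 160.1, 133 and 136 CPM with ZJU-37 and rose without overlap (log2 fold change 1.03, SE 0.095, adjusted p = 0.000806). B3gat3, whose product completes the linker between core protein and chain, fell from 131 ± 10.8 to 85.6 ± 3.28 CPM (log2 fold change -0.61, adjusted p = 0.00256). The 10 remaining genes were not past the limit. With the block the chain-polymerizing genes Chpf (0.19, adjusted p = 0.0301) and Chpf2 (-0.20, adjusted p = 0.0436) were also past it.

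In the sulfation list, 2 genes were higher and 3 lower among 13 tested, and with the block 2 were higher and 5 lower. Ust, the uronyl sulfotransferase, had 28.1, 26.5 and 26.4 CPM with DMSO and 6.76, 5.82 and 6.53 CPM with ZJU-37 and fell by 2.08 on the log2 scale (SE 0.10, adjusted p = 0.000205). Chst15, which adds a further sulfate to already sulfated N-acetylgalactosamine, fell from 8.35 ± 1.36 to 3.00 ± 0.517 CPM (log2 fold change -1.47, adjusted p = 0.00419). Both enzymes make disulfated units of the chain. Chst7, a sulfotransferase of N-acetylglucosamine and N-acetylgalactosamine, rose from 41.5 ± 1.15 to 96.5 ± 4.95 CPM (1.22, adjusted p = 0.000228). Chst11, the main chondroitin 4-sulfotransferase, rose from 47.0 ± 6.36 to 78.3 ± 3.31 CPM (0.74, adjusted p = 0.00468). Slc35b2, which carries the sulfate donor into the Golgi, fell by a small amount, from 106 ± 1.21 to 87.2 ± 1.95 CPM (-0.28, adjusted p = 0.0134), a call that was lost when DMSO replicate 2, ZJU-37 replicate 2 or ZJU-37 replicate 3 was left out (adjusted p = 0.0591, 0.0603 and 0.0595).

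Of the binding partners of Ptprz1 named above, 3 had genes that rose with ZJU-37. The tenascin genes Tnr and Tnc, also partners, did not rise (log2 fold changes -3.48 and -0.25). Ptn, which encodes pleiotrophin, had 825, 719.5 and 773 CPM with DMSO and 1576, 1379 and 1422 CPM with ZJU-37 (log2 fold change 0.92, SE 0.0883, adjusted p = 0.000975). Mdk, which encodes midkine, rose from 20.5 ± 3.00 to 35.1 ± 2.35 CPM (0.78, adjusted p = 0.00701), and its span overlaps that of Chrm4 on the opposite strand, which held 219 counts against 3279, and no strand setting was stated for the counting. Cntn1, the gene of contactin-1, rose from 259 ± 39.8 to 624 ± 114 CPM (1.27, adjusted p = 0.00326). Itga8, an integrin chain that binds tenascins, rose from 12.5 ± 1.44 to 28.4 ± 3.81 CPM (1.19, adjusted p = 0.00194). Ptn, Mdk, Cntn1 and Itga8 were the 4 genes called among 14 receptors and ligands. With the block 6 were called higher and 1 lower. Ptprs, a receptor phosphatase that binds chondroitin sulfate, had a log2 fold change of 0.33 and an adjusted p of 0.0525 (0.00195 with the block). Ptprd, a phosphatase of the same family, was the gene called lower with the block (-0.38, edgeR adjusted p = 0.00153, against 0.385 without it).

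**Figure D5:**
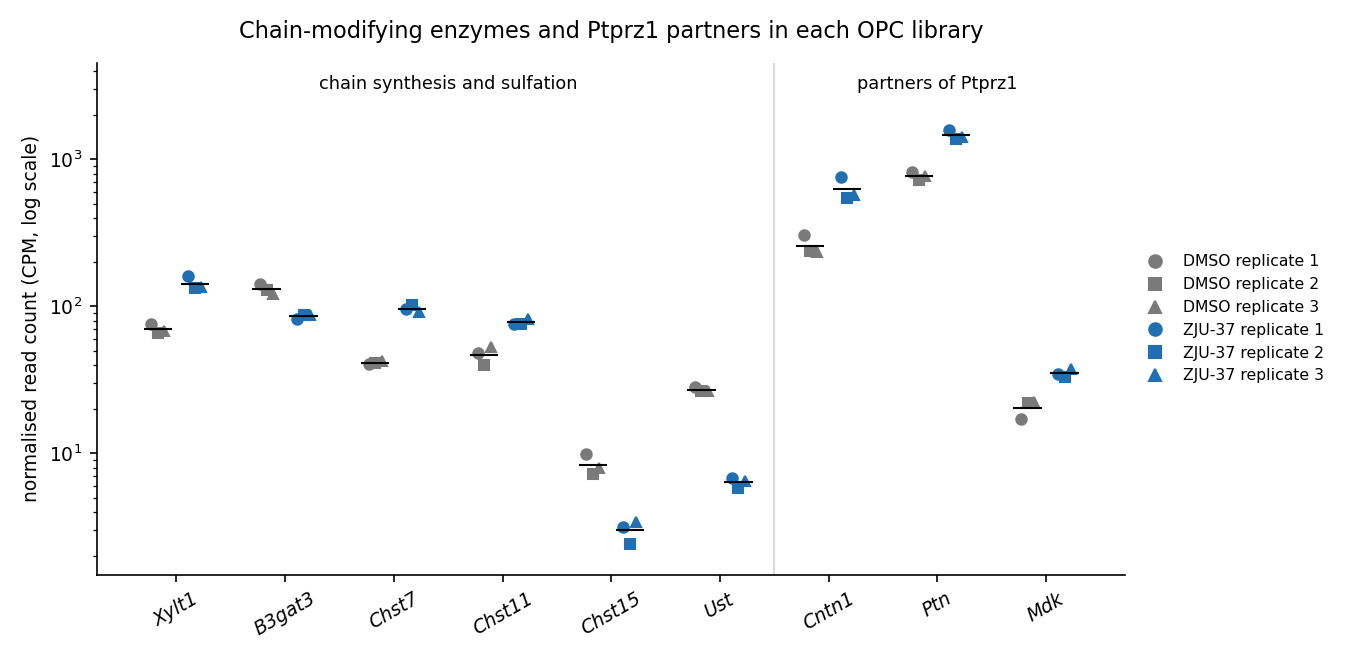
Normalised read counts (CPM, log scale) of chain-building and sulfating enzymes and of 3 partners of Ptprz1 (Cntn1, Ptn and Mdk) in each library. Lines mark the group means (n = 3 libraries), and the tenascins, which also bind Ptprz1, are not drawn here. Ust and Chst15 lie lower and Xylt1, Chst7, Chst11, Cntn1, Ptn and Mdk lie higher in all 3 ZJU-37 libraries than in any DMSO library.

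Among 15 genes of cleavage and breakdown, 2 rose and 2 fell, and with the block 2 were higher and 5 lower. Adamts1 (29.8 ± 0.667 to 52.8 ± 4.39 CPM, log2 fold change 0.83, adjusted p = 0.000962) and Adamts20 (11.3 ± 1.53 to 21.5 ± 5.18 CPM, 0.93, adjusted p = 0.0206) encode proteases that cut lecticans. Adamts4, an aggrecanase that also cuts brevican, had 315, 214 and 167 CPM with DMSO and 118, 136 and 85.7 CPM with ZJU-37 (-1.04, SE 0.268, adjusted p = 0.0487). Its call was lost in 9 of 15 alternative analyses, with adjusted p between 0.0516 and 0.131, and that of Adamts20 was lost without DMSO replicate 2 (0.0772) or DMSO replicate 3 (0.0762). Arsb, the lysosomal sulfatase that removes sulfate from the chains, fell from 197 ± 3.54 to 114 ± 13.1 CPM (-0.79, adjusted p = 0.00194).

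The counts of the remaining lists depended on the block. Of 12 tested genes for hyaluronan and link proteins, Hmmr, which encodes a hyaluronan-binding protein that also serves the mitotic spindle, rose from 35.0 ± 3.25 to 88.8 ± 6.14 CPM (log2 fold change 1.34, adjusted p = 0.00038), and with the block 3 genes were higher and 1 lower. Of 11 heparan sulfate proteoglycans, Sdc3 (syndecan-3) rose from 223 ± 12.5 to 362 ± 27.2 CPM (0.70, adjusted p = 0.00191). The block called 4 of these 11 genes higher and 3 lower, and DESeq2 called 4 in all. Of 8 tested other chondroitin sulfate proteoglycans and tenascins, 0 passed the edgeR limit, 0 had an unadjusted p under 0.05, and DESeq2 and limma-voom also called 0, whereas the block called 2 of them lower.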

How the data were processed

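Poly-A RNA of 6 OPC libraries (3 DMSO, 3 ZJU-37, grouped by the treatment in the labels) was sequenced. The authors deposited raw counts of reads per gene, neither normalized nor filtered, and FPKM values, which the authors scaled by gene length and library total. The submitters' processing notes name HISAT2 2.0.5, StringTie 1.3.3b and featureCounts 1.5.0; the genome build and the strand setting are not given in the sources used here. The table also holds the authors' own fold changes and p-values, which were not used.

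Counts were filtered with filterByExpr, TMM-normalized and tested with edgeR 4.0.16 (glmQLFit, robust, and glmQLFTest, R 4.3.3), using every library, and p-values were adjusted over 14670 genes by the Benjamini-Hochberg method. A gene was called at an adjusted p under 0.05. This test gives no standard error, so SE is the absolute log2 fold change divided by the square root of the test's F statistic. The procedure was tested on simulated data. Mean ± SD of CPM are over libraries, and FPKM served for comparisons between genes. Log2 CPM used a prior count of 2 for correlations, and a smaller one for the differences within replicate pairs. Promoter windows and older gene names came from RefSeq tables (GRCr8), whose coordinates were not mixed with those of the count table.

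Alternatives were DESeq2 1.42.0, limma-voom and limma (3.58.1) on log2(FPKM + 1) and log2(FPKM + 0.1), RLE or library-size scaling, no filter or a minimum of 10 counts per library, the replicate number as a block, and leaving out each library. The replicate numbers come from the sample titles. Deviations from the group means correlated across genes with r = 0.394, 0.312 and 0.329 for same-numbered libraries. For the others r lay between -0.271 and -0.0116, so the numbers were taken to pair the libraries. The main fit used the group only, so its calls and adjusted p-values ignore this pairing, which enters only through the block.

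The 9 genes and the gene and marker lists were chosen with earlier results of these data known, and 1 listed marker is not reported here. Named pathway genes were the called genes of each list, up to 4 per direction by size, and the genes most like Tnr were the 5 with the highest Pearson r. Ptprs, Ptprd, Chpf and Chpf2 were named after their values were seen.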

Additional observations from a re-analysis of the deposited data

How the results depend on the processing

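The log2 fold changes of the 9 genes kept their direction in all 135 values from 15 alternatives. Of these, 126 stayed on the same side of the edgeR limit. Bcan was no longer past it with library size as the only scaling (-0.68) or without DMSO replicate 1 (-0.62), DMSO replicate 2 (-0.70), ZJU-37 replicate 2 (-0.61) or ZJU-37 replicate 3 (-0.60). Ptprz1 was no longer past it without DMSO replicate 2 (0.48), DMSO replicate 3 (0.53) or ZJU-37 replicate 3 (0.57), and Ncan passed it with the replicate block (-0.32). Leaving out 1 library moved Ncan (-0.34) to between -0.51 and -0.13 and Tnc (-0.25) to between -0.31 and -0.12. Tnr ranged from -3.59 to -3.32 over all alternatives, Vcan from -1.45 to -1.15, Cspg4 from 0.94 to 1.21 and Cspg5 from 0.97 to 1.09. The number of the 9 genes past the limit was 7 and ranged from 5 to 7 when 1 library was left out.

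Over all genes, 2201 were called, 4705 with the replicate block (2371 higher, 2334 lower, against 1383 and 818 without it), and between 1306 and 1927 when 1 library was left out, the fewest without DMSO replicate 2 (1306) and ZJU-37 replicate 3 (1351). Without those libraries 5 of the 9 genes were past the limit. Of the pathway genes 17 were called, 38 with the block and 14 to 18 when 1 library was left out, and 14 of the 17 kept their call in every alternative. Each of the alternatives moved the median log2 fold change of all genes by less than 0.1. With 3 libraries per group and 11 to 113 counts per library, Acan had the least precise estimate of the 9 genes. The cause of the lost calls was not tested.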
